A study of Mus musculus with 19 samples.

Results

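Club cells and the other secretory cells of the airways were followed through 9 genes that they are known to express: Scgb1a1, Scgb3a1, Scgb3a2, Cyp2f2, Bpifa1, Muc5b, Reg3g, Lypd2 and Gabrp. Members were all array probes whose RefSeq accession mapped to one of these symbols. For 8 of the 9 genes there was 1 probe each, and Scgb3a2 was not analysed here. Scgb1a1 and Scgb3a1 had 10 spots each on every array and the other 6 had 1 spot. The lung signal of all 8 probes was well above background in all 18 mice, so none of them depended on the filter on dim probes, which left 31088 of 55681 probes for the tests.

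Adult male MutaMouse animals, a transgenic strain kept for mutation assays, were about 12 weeks old and received olive oil alone or olive oil that held 8 mixed polycyclic aromatic hydrocarbons, once daily by gavage for 28 days. Lungs were collected 72 h after the last dose, when dosing had already stopped. Group D0 (5 mice) received the vehicle, and D1 (4 mice), D2 (5 mice) and D3 (4 mice) received 15, 30 and 60 mg benzo[a]pyrene (BaP) equivalents/kg-day. RNA came from random sections of lung, taken from the right lobe by the study's methods, was labelled red and was hybridised on 19 arrays beside green-labelled Universal Mouse Reference RNA, a pool from cell lines. Each value below is a log2 ratio of lung over reference RNA. In such bulk tissue, fewer cells of a type and less RNA per cell cannot be told apart.

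The airway lining secretes the fluid and mucus that trap inhaled material, and club cells are its main secretory cell in the small airways of the mouse. Scgb1a1 (club cell secretory protein) and Cyp2f2 (a cytochrome P450 that bioactivates compounds such as naphthalene) are made by club cells down to the terminal bronchioles. Scgb3a1 (a secretoglobin), Bpifa1 (a surface-active defence protein of the BPI fold family), Muc5b (a gel-forming mucin) and Reg3g (an antimicrobial lectin) are known more from the larger airways. Lypd2 encodes a small Ly6 family protein and Gabrp the pi subunit of GABA-A receptors. Such hydrocarbons act on cells through the aryl hydrocarbon receptor, which binds at xenobiotic response elements, and club cells carry many enzymes that metabolise them.

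Promoters were read for the members that the results below turn on, 3 that varied together between mice (Scgb3a1, Bpifa1 and Reg3g) and Cyp2f2, which varied separately from them. RefSeq promoter windows of build GRCm38.p6 were given for 5 of the 9 genes, the fifth being Gabrp. The 250 bases before the start site are printed 5′ to 3′, with capitals marking CTCAAG, the core of sites for the lung transcription factor NKX2-1, on either strand:
Scgb3a1, chr11:49663345-49663594, plus strand: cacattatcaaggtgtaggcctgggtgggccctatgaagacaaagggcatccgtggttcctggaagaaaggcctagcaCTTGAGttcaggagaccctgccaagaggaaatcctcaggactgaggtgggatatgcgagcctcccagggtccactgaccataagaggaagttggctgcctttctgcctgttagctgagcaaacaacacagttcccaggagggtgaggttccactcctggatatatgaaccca
Bpifa1, chr2:154142630-154142879, plus strand: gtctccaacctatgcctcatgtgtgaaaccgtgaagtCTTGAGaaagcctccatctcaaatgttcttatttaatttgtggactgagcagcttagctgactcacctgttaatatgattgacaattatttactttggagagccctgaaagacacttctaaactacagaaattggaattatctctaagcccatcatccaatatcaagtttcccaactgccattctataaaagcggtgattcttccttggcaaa
Reg3g, chr6:78468875-78469124, minus strand: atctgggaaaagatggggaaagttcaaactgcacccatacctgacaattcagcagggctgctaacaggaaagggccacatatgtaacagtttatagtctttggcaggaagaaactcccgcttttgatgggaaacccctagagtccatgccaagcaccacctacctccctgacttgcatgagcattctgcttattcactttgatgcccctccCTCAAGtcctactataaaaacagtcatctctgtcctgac
Cyp2f2, chr7:27119705-27119954, plus strand: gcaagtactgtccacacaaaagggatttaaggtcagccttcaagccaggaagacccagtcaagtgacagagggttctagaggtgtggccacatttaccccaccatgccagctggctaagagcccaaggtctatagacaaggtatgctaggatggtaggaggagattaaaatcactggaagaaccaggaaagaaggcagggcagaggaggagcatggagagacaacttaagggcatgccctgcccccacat
CTCAAG was present in 3 of the 5 windows, with its leftmost base at -172 in Scgb3a1, -213 in Bpifa1 and -39 in Reg3g counted from the start site. The same letters were present in 13.3% of all 32851 windows of this length. The core of the xenobiotic response element, GCGTG, was present in 28.2% of all windows and in 0 of the 5. The same count of 0 was found for TGTTTAC, for FOXA factors (3.17% of all windows), and for TTGCNNAA, for C/EBP factors (9.56%). A match or its absence in 250 bases is a description of these letters only.

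None of the 8 genes was called as changed at any dose. A call required a limma p, adjusted by Benjamini-Hochberg over all tested probes, no higher than 0.05 together with a change of at least 1.5-fold. Against D0, 0 of 8 members were called at D1, where 1.06% of all tested probes were called, 0 of 8 at D2 (background 0.624%) and 0 of 8 at D3 (background 2.43%). At an unadjusted p under 0.05 the counts by limma were 0, 0 and 1, the last being Lypd2. No member was called between doses either, where the background was 0% for D2 against D1, 0.106% for D3 against D2 and 0.145% for D3 against D1, and none had an unadjusted p under 0.05 there. For a linear trend over dose 0 of 8 were called (background 1.52%), and 1 of 8, again Lypd2, had an unadjusted p under 0.05. In all 48 group comparisons the ranges of the mice overlapped. Beside backgrounds this low a count of 0 of 8 is no result about the members, and their sizes and intervals are given below.

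**Figure D1:**
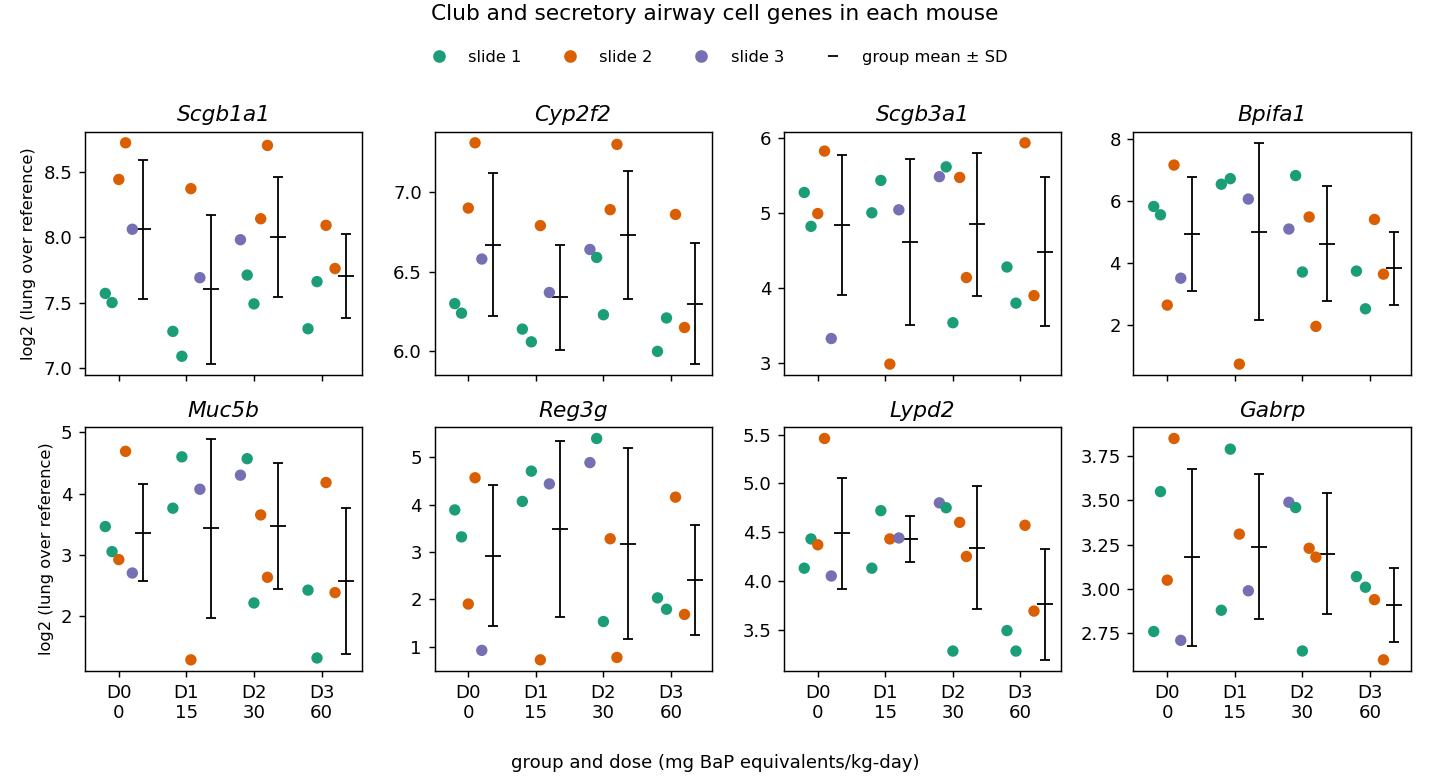
Log2 ratio of lung over reference RNA for each of the 8 genes (vertical axis, different range in each panel) by dose group (horizontal axis, 5, 4, 5 and 4 mice), with 1 point per mouse coloured by slide and the group mean with SD beside it. Mouse 35, the mean of arrays on slides 2 and 3, is coloured as slide 2. Scgb1a1 is 7.09 to 7.71 on slide 1 and reaches 8.72 on slide 2, and Bpifa1 runs from 0.73 to 7.17.

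Scgb1a1, the classical club cell product, was measured at 7.57, 7.50, 8.44, 8.72 and 8.06 in the 5 vehicle mice. It was 7.28, 7.09, 8.37 and 7.69 in D1, 7.98, 7.71, 7.49, 8.14 and 8.70 in D2, and 7.30, 7.66, 8.09 and 7.76 in D3. The group means in falling order were 8.06 ± 0.53 (SD, n = 5) in D0, 8.00 ± 0.46 (n = 5) in D2, 7.70 ± 0.32 (n = 4) in D3 and 7.60 ± 0.57 (n = 4) in D1, and no neighbours in that order differed beyond their spread. The largest difference from D0 was -0.45 at D1 (SE 0.28, 95% interval -1.05 to 0.14, limma adjusted p = 0.401), with 3 of 4 mice below the D0 mean. At D3 it was -0.36 (95% interval -0.95 to 0.24, limma adjusted p = 0.466), again in 3 of 4 mice. Leaving out each of the 18 mice in turn, this change ran from -0.49 without mouse 2 of D0 to -0.19 without mouse 4 of D0.

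The ratio of Scgb1a1 differed between the slides on which the mice were hybridised. The 3 slides held 8, 7 and 4 arrays, with all 4 groups on each. Over single arrays the ratio was 7.09 to 7.71 on slide 1, 8.09 to 8.72 on slide 2 and 7.42 to 8.06 on slide 3, so that slides 1 and 3 overlapped. With mouse 35, the mean of arrays on slides 2 and 3, placed on slide 2, slide held 71.7% of the variance between mice where dose group held 16.7%, and without mouse 35 slide held 80.9%. The green signal of the reference RNA, which is the same RNA on every array, was 4740 to 6220 on slide 1 and 1630 to 2570 on slides 2 and 3. The arrays of mouse 35 in D3, which lay on slides 2 and 3, read 8.10 and 7.42, a difference of 0.68 within 1 animal that was larger than the SD of 0.48 between mice of a group. With slide as a block the change at D1 was -0.35 (limma adjusted p = 0.140) and at D3 -0.36 (limma adjusted p = 0.0923), and from the red channel alone the changes at D1 and D3 were 0.00 and 0.02. The red signal of Scgb1a1, 449000 to 671000, was close to the top of the scanner range: its single spots reached 54.9% to 88.6% of the saturation value, with 0 spots marked as saturated. The part of the scanner range in these values was not tested.

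Cyp2f2, the club cell P450, ran with Scgb1a1. Its ratios were 6.30, 6.24, 6.90, 7.31 and 6.58 in D0, 6.14, 6.06, 6.79 and 6.37 in D1, 6.64, 6.59, 6.23, 6.89 and 7.30 in D2, and 6.0, 6.21, 6.86 and 6.15 in D3. The groups overlapped, and the D3 mean of 6.30 ± 0.38 (SD, n = 4) was below the D0 mean of 6.67 ± 0.45 (n = 5) by less than the SD of either. The change at D3 was -0.37 (SE 0.23, 95% interval -0.85 to 0.12 or 0.553-fold to 1.09-fold, limma adjusted p = 0.343), with 3 of 4 mice below the D0 mean. Without mouse 34 of D3 it was -0.55 and without mouse 4 of D0 -0.20, the extremes over the mice left out. Slide held 58.3% of the variance, or 79.7% without mouse 35, and with slide as a block the change was -0.39 (limma adjusted p = 0.0675). In the red channel alone the change was -0.04 (limma adjusted p = 0.893).

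**Figure D2:**
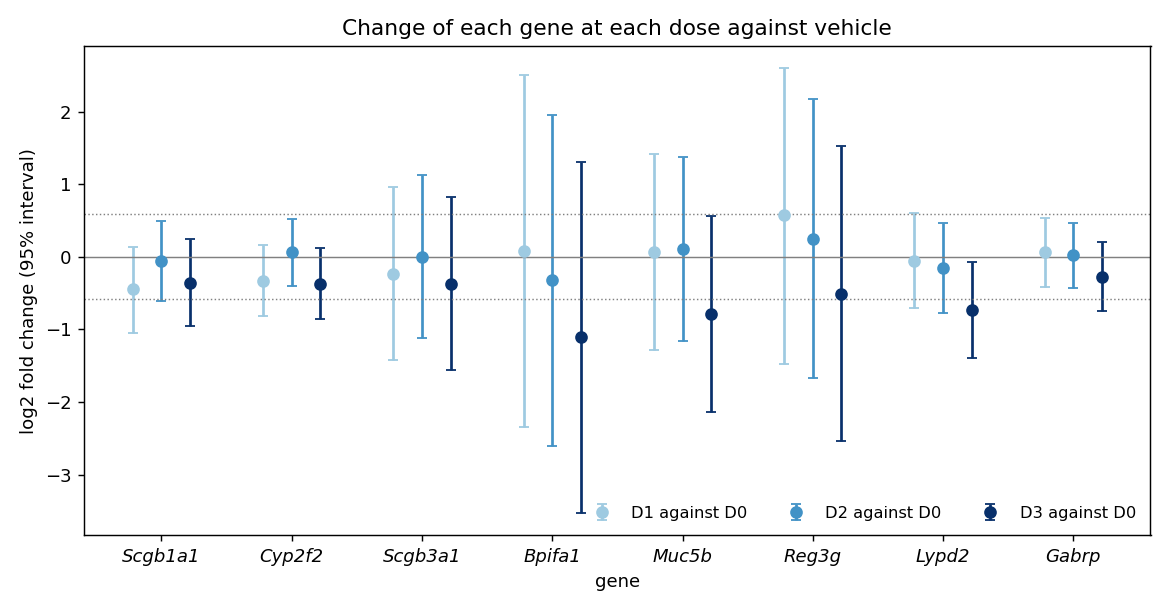
Log2 fold change of each gene against D0 (vertical axis) at D1, D2 and D3, with 95% intervals from limma; dotted lines mark 1.5-fold either way. All 8 points at D3 lie below 0, from -0.28 to -1.11, and the interval of Lypd2 alone excludes 0 before adjustment.

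Among the genes of the larger airways, Bpifa1 varied most between mice. It read 5.83, 5.56, 2.64, 7.17 and 3.51 in D0, 6.55, 6.73, 0.73 and 6.07 in D1, 5.10, 6.83, 3.71, 5.49 and 1.95 in D2, and 3.74, 2.52, 5.41 and 3.64 in D3. High and low mice were found in every group, and the lowest and highest of the 18 lay 86.7-fold apart in the ratio. The mean was 4.94 ± 1.84 (SD, n = 5) in D0, 5.02 ± 2.87 (n = 4) in D1, 4.62 ± 1.86 (n = 5) in D2 and 3.83 ± 1.19 (n = 4) in D3. The change at D3 was -1.11 with an SE of 1.16, and its 95% interval reached from -3.53 to 1.31 (limma adjusted p = 0.594), which is 0.0863-fold to 2.47-fold. Single vehicle mice moved it by more than 1.5 times, to -0.56 without mouse 4 and to -1.69 without mouse 3. Within slides, the D3 mean was below that of D0 by 2.56 on slide 1 and by 0.38 on slide 2, with 2 mice a group on each. The reference signal of Bpifa1 was well above background in 9 of 18 mice.

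Reg3g, the antimicrobial lectin, also had high and low mice in every group. It read 3.89, 3.32, 1.90, 4.57 and 0.92 in D0, 4.07, 4.71, 0.72 and 4.44 in D1, 4.89, 5.40, 1.53, 3.28 and 0.77 in D2, and 2.03, 1.79, 4.16 and 1.68 in D3. The means were 2.92 ± 1.49 (SD, n = 5), 3.48 ± 1.86 (n = 4), 3.17 ± 2.02 (n = 5) and 2.41 ± 1.17 (n = 4) from D0 to D3. The change was 0.57 at D1 (95% interval -1.47 to 2.60, limma adjusted p = 0.808) and -0.51 at D3 (95% interval -2.54 to 1.53, limma adjusted p = 0.794). The value at D1 included mouse 24, which read 0.72 beside 4.07, 4.71 and 4.44 in the rest of its group. The value at D3 rested on single mice, at -1.09 without mouse 34 of D3 and -0.09 without mouse 4 of D0. Its reference signal was well above background in 0 of 18 mice, so its ratios, like those of Gabrp, are set against a reference spot near background.

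Muc5b, the gel-forming mucin, read 3.46, 3.05, 2.92, 4.69 and 2.70 in D0, 3.76, 4.6, 1.28 and 4.07 in D1, 4.30, 4.57, 2.21, 3.65 and 2.63 in D2, and 2.42, 1.31, 4.18 and 2.38 in D3. In D3, 3 of 4 mice lay below every vehicle mouse and mouse 34 above 4 of the 5. The change at D3 was -0.79 (SE 0.65, 95% interval -2.14 to 0.56, limma adjusted p = 0.479), with -1.33 when mouse 34 was left out and -0.37 when mouse 32 of D3 was. Scgb3a1 read 5.27, 4.82, 4.99, 5.82 and 3.33 in D0 and 5.00, 5.43, 2.99 and 5.04 in D1. It read 5.48, 5.61, 3.54, 5.47 and 4.14 in D2, and 4.28, 3.80, 5.93 and 3.90 in D3, where mouse 34 held the highest value of all. Its change at D3 was -0.37 (SE 0.57, 95% interval -1.56 to 0.83, limma adjusted p = 0.741), and it ran from -0.85 without mouse 34 to -0.12 without mouse 4 of D0.

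Lypd2 came closest to a call. It read 4.13, 4.43, 4.37, 5.46 and 4.05 in D0, 4.13, 4.72, 4.43 and 4.44 in D1, 4.80, 4.75, 3.28, 4.60 and 4.25 in D2, and 3.49, 3.28, 4.57 and 3.69 in D3. In D3, mice 31, 32 and 35 lay below all vehicle mice and mouse 34 above 4 of the 5. The mean fell from 4.49 ± 0.57 (SD, n = 5) in D0 to 3.76 ± 0.57 (n = 4) in D3, a difference of -0.73 (SE 0.31, 95% interval -1.39 to -0.07) with an unadjusted p of 0.0310 in limma that did not hold after adjustment (adjusted p = 0.142). The trend over dose had a fitted change of -0.73 (limma unadjusted p = 0.0219, adjusted p = 0.145). The value rested on single mice in both groups: without mouse 34 of D3 the change was -1.0 (limma adjusted p = 0.0465, a call), and without mouse 4 of D0 it was -0.49 (limma adjusted p = 0.320). Within slides 1 and 2, the difference was -0.89 and -0.79.

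Gabrp, the receptor subunit, had a narrower spread than the large airway genes. It read 2.76, 3.55, 3.05, 3.85 and 2.71 in D0, 2.88, 3.79, 3.31 and 2.99 in D1, 3.49, 3.46, 2.65, 3.23 and 3.18 in D2, and 3.07, 3.01, 2.94 and 2.60 in D3. All 4 mice of D3 lay below the D0 mean but within or near the D0 range. The change was -0.28 (SE 0.23, 95% interval -0.75 to 0.20, limma adjusted p = 0.486), and it was -0.11 without mouse 4 of D0 and -0.39 without mouse 5.

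At the top dose the estimates of the 8 genes lay on 1 side. All 8 changes at D3 were below 0, with a median of -0.44 beside a median of -0.00186 over all tested probes, while at D1 4 of 8 and at D2 3 of 8 were below 0. Markers of some other lung cells also lay below 0 at D3, with 7 of 7 tested alveolar type 2 genes (median -0.32) and 5 of 6 smooth muscle genes (-0.26). So did 12 of 14 ciliated genes (-0.17) and 5 of 7 alveolar type 1 genes (-0.17), and none in these lists was called. Other lists had medians above 0. Below 0 were 2 of 7 mucous cell genes (median 0.13) and 2 of 6 neuroendocrine genes (0.07). The same held for 1 of 4 large airway cartilage genes (0.07) and 1 of 8 neutrophil genes (0.88). Whether the shift of the members differed from that of these lists was not tested. Since the genes vary together between mice, as described next, and share the vehicle mice, these are not 8 separate observations, and no test is given for them as a list. From the red channel alone the change of Scgb1a1 at D3 was 0.02, the only one of 232 values under the alternatives computed for D3 that changed sign.

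The main feature of these genes was their spread between mice that had received the same dose. The SD between mice of a group was 2.01 for Bpifa1, 1.69 for Reg3g, 1.12 for Muc5b and 0.99 for Scgb3a1, against a median of 0.15 over all tested probes. Only 3 of the 31088 tested probes had a larger SD than Bpifa1, 6 than Reg3g, 42 than Muc5b and 58 than Scgb3a1. Lypd2 (0.54), Scgb1a1 (0.48), Cyp2f2 (0.39) and Gabrp (0.38) were exceeded by 1.09%, 1.52%, 2.82% and 3.09% of tested probes. Dose group held 3.12% of the variance of Scgb3a1, 5.91% of that of Reg3g, 6.13% for Bpifa1, 11.5% for Muc5b, 12.1% for Gabrp, 16.7% for Scgb1a1, 23.0% for Cyp2f2 and 26.0% for Lypd2, beside a median of 23.4% over all tested probes. The arrays of mouse 35 read 3.71 and 3.56 for Bpifa1, 1.62 and 1.74 for Reg3g, 2.43 and 2.34 for Muc5b, 4.15 and 3.66 for Scgb3a1, 3.78 and 3.59 for Lypd2 and 2.73 and 2.48 for Gabrp, closer than the SD between mice for these 6 genes. For Cyp2f2 they read 6.45 and 5.84, farther apart than the SD between mice, as for Scgb1a1.

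**Figure D3:**
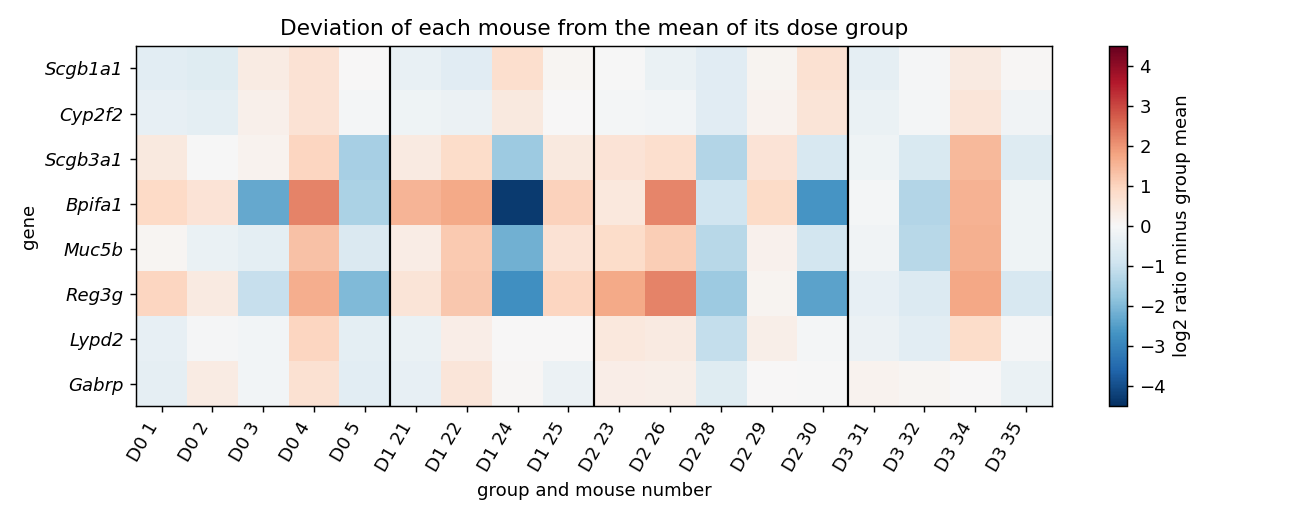
Log2 ratio minus the mean of the mouse's own dose group (colour) for the 8 genes (rows) in the 18 mice (columns, black lines between groups). Mouse 24 of D1 is lowest for Scgb3a1, Bpifa1, Muc5b and Reg3g, which differ from each other in some mice, and Scgb1a1 and Cyp2f2 follow another order.

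The genes fell into 2 patterns of variation. Correlations were computed over the deviations of 18 mice from their group means for all 28 pairs, with p-values from a two-sided permutation of mice within groups (100000 resamples, smallest possible p 1e-05) adjusted over the 28 pairs, and 12 pairs were called. Among Scgb3a1, Bpifa1, Muc5b, Reg3g and Lypd2, 9 of 10 pairs were called, with r from 0.483 to 0.92 and Spearman's rho from 0.581 to 0.953. Scgb3a1 and Muc5b had r = 0.92 (rho = 0.953, permutation p = 2e-05 for both, adjusted p = 0.000187 for r). Bpifa1 and Reg3g had r = 0.916 (rho = 0.901, permutation p = 6e-05 and 4e-05, adjusted p = 0.000336 for r). Muc5b and Reg3g had r = 0.906 (rho = 0.911, permutation p = 2e-05 and 1e-05, adjusted p = 0.000187 for r). Without the 2 mice farthest from the median of the first gene, r in these 3 pairs was 0.932, 0.872 and 0.876. Within slide 1 (8 mice) it was 0.948, 0.915 and 0.903, and within slide 2 (7 mice) 0.953, 0.954 and 0.969, and slide 3 had too few mice. The pair not called in this set was Bpifa1 and Lypd2 (r = 0.483, permutation p = 0.0353, adjusted p = 0.076, rho = 0.581, p = 0.016). With slide removed its r was 0.763 and it passed the threshold (permutation test, adjusted p = 0.0018).

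Scgb1a1 and Cyp2f2 formed the other pattern, and since their ratios differed by slide, the value is given with slide removed: r was 0.832 with group and slide removed, 0.853 within slide 1 and 0.837 within slide 2. This was not particular to the pair. By the same measure r was 0.871 for Scgb1a1 with the haemoglobin gene Hba-a2 and 0.88 for Cyp2f2 with H2-Ab1, neither of them a member. Of the 12 pairs that join Scgb1a1 or Cyp2f2 with another member, 1 was called, Cyp2f2 and Lypd2 (r = 0.607, permutation p = 0.0204, adjusted p = 0.0476). The rho of this pair was 0.484 (permutation p = 0.0674). With slide removed its r was 0.45 and the call was lost (permutation test, adjusted p = 0.152). Scgb1a1 and Scgb3a1, both secretoglobins, had r = -0.0902 (rho = -0.0258, permutation p = 0.749 and 0.93). Gabrp was called with Lypd2 (r = 0.711, rho = 0.674, permutation p = 0.00126 and 0.00369, adjusted p = 0.00353 for r), and r was 0.512 without the 2 farthest mice. With its 4 other partners from the first set its r was 0.315 to 0.472, none called.

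**Figure D4:**
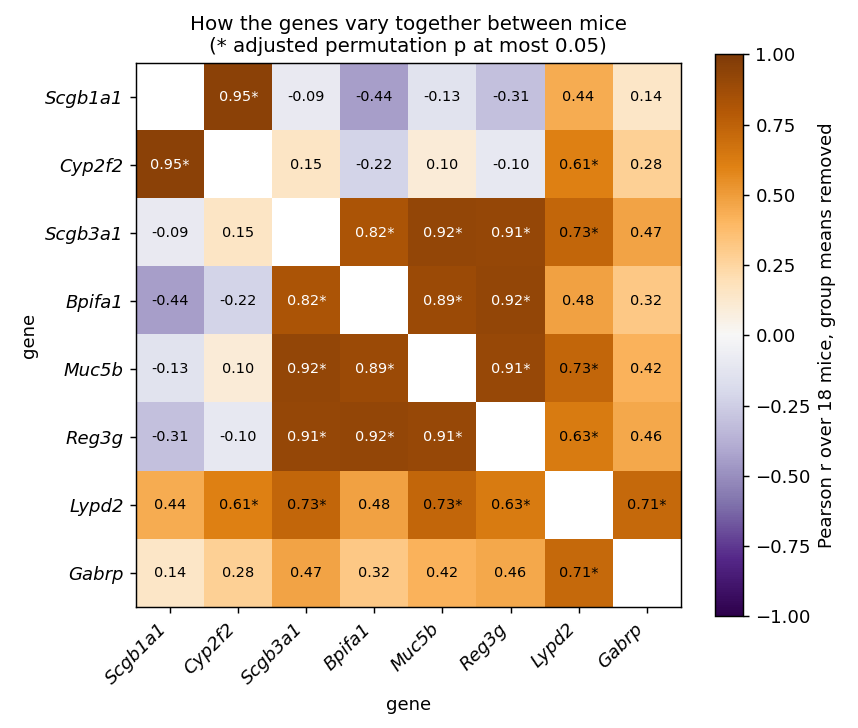
Pearson r of the deviations from group means over 18 mice for each pair of the 8 genes, with a star at an adjusted permutation p of at most 0.05. Scgb3a1, Bpifa1, Muc5b and Reg3g form a block of r between 0.821 and 0.92, apart from Scgb1a1 and Cyp2f2.

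The reference channel also varied between mice, in a way that differed from gene to gene. For Scgb3a1 the red lung signal ran from 950 to 76500 between mice, an 80.5-fold range, and the green signal of the common reference RNA on the same spots ran from 64.5 to 2520, well above background in 17 of 18 mice. Over the 18 mice, with group means removed, green rose with red for Scgb3a1 (r = 0.92, rho = 0.92, permutation p = 3e-05 for both, adjusted over 8 genes p = 8e-05). The same held for Bpifa1 (r = 0.857, rho = 0.835, permutation p = 1e-05 and 2e-05, adjusted p = 4e-05), whose red signal ran 315-fold from 153 to 48300. Its green signal reached 553 but was well above background in only 9 of 18 mice, so the lower part of that relation rests on spots near background. Without the 2 mice of most extreme red signal, r for Scgb3a1 and Bpifa1 was 0.895 and 0.784, and with slide removed too it was 0.985 and 0.903. Muc5b had r = 0.677 (rho = 0.614, permutation p = 0.0105 and 0.0162, adjusted p = 0.0168), and Reg3g, with no green spot well above background, r = 0.615 (rho = 0.562, permutation p = 0.0219 and 0.0337, adjusted p = 0.0292). Gabrp, whose green signal was also near background, ran the other way with r = -0.566 (rho = -0.434, permutation p = 0.0328 and 0.111, adjusted p = 0.0375), and Lypd2 had r = 0.134 (rho = 0.152, permutation p = 0.591 and 0.577). Without the 2 farthest mice r was 0.579 for Muc5b, 0.374 for Reg3g, -0.303 for Gabrp and 0.12 for Lypd2, and with group and slide removed it was 0.881, 0.693, -0.326 and 0.902. For Scgb1a1 and Cyp2f2, which differed by slide, green fell as red rose with group means removed, at r = -0.962 and -0.81 (permutation test, adjusted p = 4e-05 and 0.00164). With slide removed too, r was -0.191 for Scgb1a1 and 0.384 for Cyp2f2. The highest and lowest mice were 7.65-fold apart in the ratio for Scgb3a1, less than in the lung channel, whereas for Scgb1a1 they were 3.1-fold apart in the ratio and 1.5-fold in the lung channel. For Cyp2f2 these ranges were 2.49-fold and 2.57-fold. The source of the green signal was not tested. From the red channel alone 0 of 8 members were called at any dose, and 12 of 28 pairs varied together, as many as from the ratios.

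**Figure D5:**
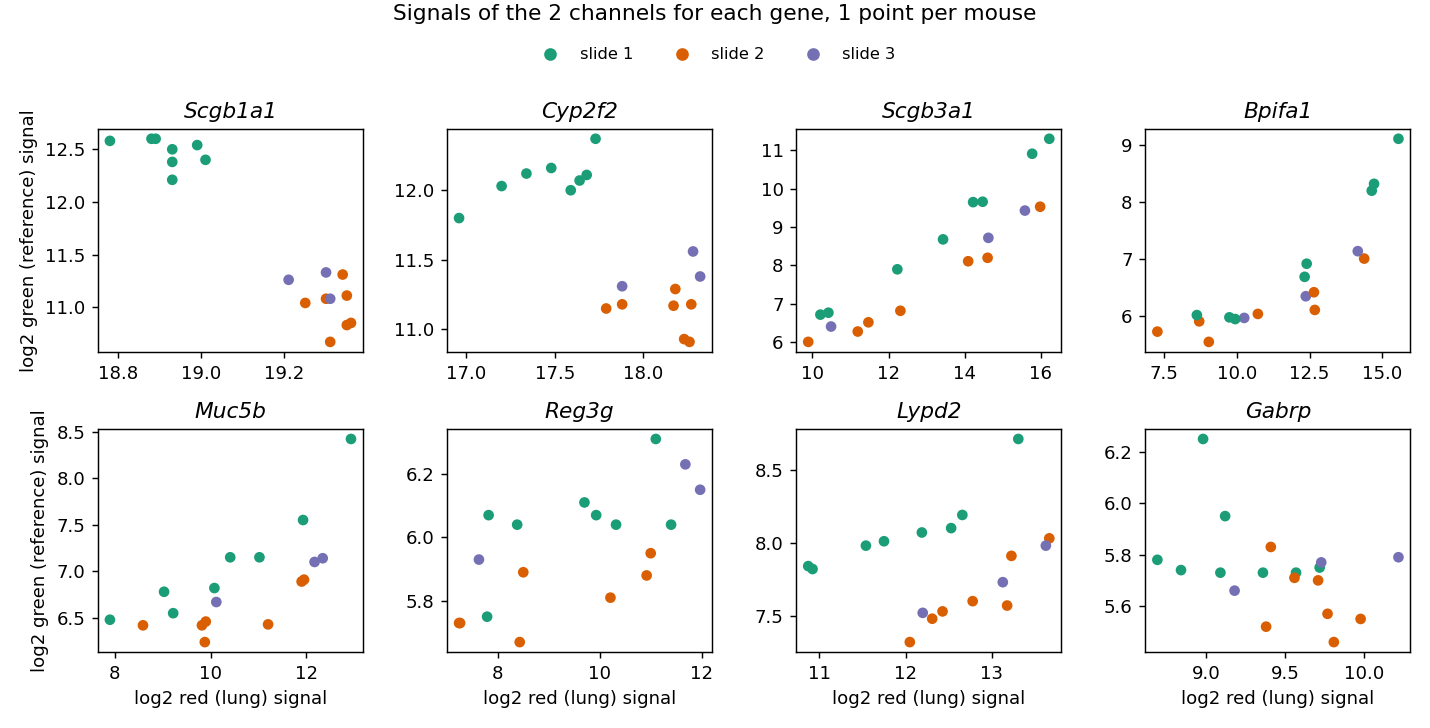
Log2 green signal of the reference RNA (vertical axis) against log2 red signal of the lung RNA (horizontal axis), before normalisation, for each gene, with 1 point per mouse coloured by slide. Green climbs with red for Scgb3a1 and Bpifa1, and for Scgb1a1 and Cyp2f2 slide 1 stands apart from slides 2 and 3.

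The genes outside the members whose ratios were most like theirs over the 18 mice were read as a description, first by r without adjustment for group or slide. Tff2, a trefoil peptide of mucus, was among the 3 most alike for Reg3g (r = 0.945), Muc5b (0.913), Scgb3a1 (0.9) and Bpifa1 (0.833). The others were Bpifb1 (0.849) and Cdh26 (0.843) for Scgb3a1, Ank2 (0.835) and Sult1d1 (0.814) for Bpifa1, Ank2 (0.896) and Cyp2a4 (0.852) for Muc5b, and Sult1d1 (0.894) and Cdh26 (0.854) for Reg3g. Scgb1a1 was most like Wfdc2 (0.974), Hba-a2 (0.973), a haemoglobin chain, and Sftpc (0.967), the surfactant protein of alveolar type 2 cells. Cyp2f2 was most like H2-Ab1 (0.958), Cbr2 (0.947) and Wfdc2 (0.945). Lypd2 was most like Muc20 (0.864), Tbata (0.854) and Klk11 (0.84), and among the genes most like Gabrp were Pigr (0.885) and Mgat3 (0.87). With group and slide removed, r with Scgb1a1 was 0.957 for Wfdc2, 0.871 for Hba-a2 and 0.832 for Sftpc, and r with Cyp2f2 was 0.88 for H2-Ab1, 0.812 for Cbr2 and 0.843 for Wfdc2. For the genes most like the other 6 members it was 0.755 to 0.953. The adjustment was added after the values were seen, and the genes were chosen from the unadjusted r.

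Scores of other cell types moved with the members between mice. For 9 lists of marker genes, the mean log2 ratio per mouse was set against each member in the same way, and 23 of 72 relations had an adjusted permutation p of at most 0.05. The mucous cell list (7 of 12 genes tested, which include Bpifb1) was called with 5 members, most closely with Muc5b (r = 0.864, rho = 0.831, permutation p = 4e-05 and 0.00012, adjusted p = 0.00144; r = 0.827 without the 2 farthest mice). Its summed red signal was 4760 to 19500 in D0, 5750 to 53000 in D1, 3330 to 33300 in D2 and 3080 to 28500 in D3. The neutrophil list (8 of 8 genes tested) was called with 6, among them Lypd2 (r = 0.791, rho = 0.777, permutation p = 0.00132 and 0.00197, adjusted p = 0.00634; r = 0.615 without the 2 farthest mice). Its summed red signal was 55900 to 78400 in D0, 66200 to 106000 in D1, 55300 to 127000 in D2 and 67100 to 218000 in D3. The smooth muscle list was called with 4 members, the large airway cartilage list with 1, which was Lypd2, and the basal and neuroendocrine lists with 0. The ciliated list was called with 3, Scgb1a1, Cyp2f2 and Lypd2, and with group and slide removed its r with them was 0.612, 0.747 and 0.572. The alveolar type 1 and type 2 lists were called with Scgb1a1 and Cyp2f2, whose ratios differed by slide. With group and slide removed, r with the type 2 list was 0.551 for Scgb1a1 and 0.337 for Cyp2f2, and with the type 1 list 0.326 and -0.0339. The part of these cell types in the spread of the members was not tested.

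Genes related to the members by cell type or function changed in small numbers. Among 14 tested of 15 other club and secretory cell genes, 1 rose and 1 fell at D3, with a median change of -0.28 (1.2% of all tested probes were called higher and 1.22% lower). The fall was Pigr, the receptor that carries immunoglobulin A into the airway lumen, at 1.76 ± 0.16 (SD, n = 5) in D0, 1.03 ± 0.07 (n = 4) in D1, 1.42 ± 0.24 (n = 5) in D2 and 1.02 ± 0.23 (n = 4) in D3. It fell by 0.73 on the log2 scale at D1 (limma adjusted p = 0.0023) and by 0.74 at D3 (limma adjusted p = 0.000707), in 4 of 4 mice each. However, a dimmer Pigr probe gave -0.03 at D1 and -0.24 at D3 (limma adjusted p = 0.974 and 0.679). The rise was Krt15, a keratin shared with basal cells, by 0.89 at D3 (SE 0.25, limma adjusted p = 0.0251, 4 of 4 mice). The brightest others, Cbr2, Hp, Selenbp1 and Bpifb1, had changes of -0.26, -0.25, -0.21 and -0.71 at D3, none called.

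Of 14 tested of 15 club cell metabolic enzymes, 1 was called at each dose. Ephx1, microsomal epoxide hydrolase, which hydrolyses epoxides of these hydrocarbons, rose from 1.44 ± 0.23 (SD, n = 5) in D0 to 2.21 ± 0.11 (n = 4), 2.43 ± 0.14 (n = 5) and 2.82 ± 0.13 (n = 4) in D1, D2 and D3, without overlap with D0. Its changes by limma were 0.77, 0.99 and 1.38 (adjusted p = 0.000801, 1.86e-05 and 1.3e-07), and its second probe was called too. Cyp4b1, a P450 of club cells, was at -0.53 at D3 (limma adjusted p = 0.0347), short of 1.5-fold, and Aldh1a1, Cyp2b10 and Gsta3 were at -0.06, -0.14 and 0.17, none called. The median of this list at D3 was -0.13.

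At D1, D2 and D3, 1.06%, 0.624% and 2.43% of all tested probes were called, so a count of 0 in a small list is no result about it. No gene was called at D1, D2 or D3 among the 7 tested mucous cell genes, 14 tested ciliated genes, 11 tested relatives of the members in the secretoglobin, BPIF, Reg, mucin and Lypd families, 3 tested GABA-A receptor subunits or 16 airway transcription factors and Notch genes. In the last list Foxa1, a factor that binds airway secretory promoters, was at -0.48 at D3 (limma adjusted p = 0.0128), short of 1.5-fold. The other genes of that list with an adjusted p no higher than 0.05 at D3, named after their values were seen, were the receptor Notch1 at -0.34 and its ligand Jag2 in the opposite direction at 0.50 (limma adjusted p = 0.0207 and 0.00795), both short of 1.5-fold. The ciliated list gives the other main cell of the airway lining, and its median change at D3 was -0.17, with a mean log2 ratio per mouse of 3.73 to 4.78 in D0 and 3.89 to 4.40 in D3.

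Defence genes known to be induced in airway epithelium with Reg3g were followed beside it. Their median change at D3 was 0.05, and 4 of the 9 tested, of 13 in the list, were below 0. Of the 9, 3 rose at D3: Saa3 by 1.57 (SE 0.30, limma adjusted p = 0.00227), Lcn2 by 0.81 (SE 0.20, limma adjusted p = 0.0127) and Cxcl1 by 0.69 (SE 0.18, limma adjusted p = 0.0170), each in 4 of 4 mice. Pigr, in this list too, was the 1 that fell. Reg3g itself was at -0.51 there, with an interval that includes both directions, and a difference between it and these genes was not tested. Of the 8 neutrophil genes 2 were called higher at D1 and at D2, Mmp8 (0.98 and 0.97, limma adjusted p = 0.00189 and 0.00111) and Camp (1.04 and 1.16, limma adjusted p = 0.0460 and 0.0294). The call of Camp came from its dimmer probe, while its brighter probe was at 1.29 and 1.34 (limma adjusted p = 0.0815 and 0.0832). At D3 4 of the 8 were called higher, Mmp8 (1.49), S100a8 (1.77), S100a9 (0.86) and Cxcr2 (0.92), with limma adjusted p = 6.74e-06, 0.00177, 0.0286 and 0.0108. In the same list Csf3r, the receptor for granulocyte colony-stimulating factor, had lower values, at -0.37 at D1 and -0.46 at D3 (limma adjusted p = 0.0445 and 0.00655), short of 1.5-fold.

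The exposure itself was plain in the same mice. Cyp1a1, the classical aryl hydrocarbon receptor target, read 0.83 ± 0.15 (SD, n = 5) in D0, 2.11 ± 1.52 (n = 4) in D1, 3.79 ± 0.76 (n = 5) in D2 and 4.44 ± 1.43 (n = 4) in D3. It was called at D2 (2.96, limma adjusted p = 0.00892) and D3 (3.61, limma adjusted p = 0.000835). Of the other targets in this list of 4, Ahrr, the repressor of the receptor, was called at all 3 doses (1.5, 1.79 and 1.84, limma adjusted p = 1.99e-05, 7.4e-07 and 2.83e-07). Cyp1b1, a P450 that activates these hydrocarbons, was called at all 3 as well (1.66, 2.42 and 2.68, limma adjusted p = 0.000718, 2.43e-06 and 4.6e-07). Nqo1, a quinone reductase, was called at D3 (0.59, limma adjusted p = 0.0160) after 0.19 and 0.36 at D1 and D2.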

How the data were processed

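Lung RNA (Cy5, red) and a reference RNA from mouse cell lines (Cy3, green) were hybridised without dye swaps on 19 two-colour Agilent arrays from 18 mice, so ratios are open to dye bias. The scanner files, as deposited, give an intensity for each spot (median pixel brightness, and signals processed by Feature Extraction 11.0.1.1 per the file headers), and the deposited series table holds log2 ratios normalised by the authors. That table was used as an alternative, and its ratios correlated at 0.995 to 0.998 with those computed here.

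Control spots and outlier-marked spots (171 to 323 per array) were removed. Median signals were loess normalised (span 0.3) without background subtraction, and spots of a probe were averaged. Probes were tested where red was well above background in at least 4 mice of 1 group. The share of spots above background was 54.5% to 64.7% in red and 47.0% to 61.6% in green, and the number of arrays limits the precision.

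Accessions (21465 of 22765 matched) were named through RefSeq (GRCm38.p6). Groups came from the labels. Arrays 35.1 and 35.2 were averaged as 1 mouse. Mouse 23 was kept in D2 as labelled, although its number falls among those of D1 and the study's group sizes differ. On all slides the dose groups lay in columns of their own, and a column effect cannot be told apart from dose. The 4 groups entered 1 limma model (limma 3.58.1, R 4.3.3; MAANOVA was not available), and a trend over dose needed a fitted change of 1.5-fold over the dose range. For values within slides, mouse 35 was placed on slide 2. Correlations used scipy 1.17.1. Both were tested on simulated data. The alternatives changed normalisation, background correction (normexp, offset 50, on median signals), channel, probe filter, slide, and the mice used.

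The members and the 17 other gene lists were chosen with earlier results of these data known. List genes were named where called at a dose, with at most 4 others per list by brightest signal, and the 3 most alike genes for each member, 1 of which is left out. The relations with marker lists and between channels were chosen after the values were seen. Scgb3a2 is not reported here.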

Additional observations from a re-analysis of the deposited data

Results flagged for a closer look

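In 32 groups of 4 or 5 mice, 1 for each gene and dose, 4 values stood far from the rest of their group by Dixon's test, which chance alone does in about 1 in 20 groups. Mouse 24 of D1 had the lowest log2 ratio of all mice for Bpifa1 (0.73) and Reg3g (0.72), and mouse 34 of D3 stood above its group for Reg3g (4.16). Mouse 4 of D0 stood above its group for Lypd2 (5.46). Without mouse 24, 16 of 28 gene pairs varied together instead of 12.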

How the results depend on the processing

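The count of 0 of 8 members called held for D1, D2, for all comparisons between doses and for the trend under all 29 alternatives, and for D3 under all but 1, leaving out mouse 34, where 1 gene (Lypd2) was called. Leaving out each mouse in turn thus gave 0 to 1 called at D3. The count of pairs that varied together was 10 to 15 under the other alternatives and 10 to 16 leaving out each mouse in turn. Of 696 changes against D0 recomputed, 69 changed sign, 29 at D1, 39 at D2 and 1 at D3, and none of these was called in either fit. The largest was 0.45 in size before the change. Differences within slides ran from -4.17 to 2.57 for Bpifa1 at D1, from 1 or 2 mice a group. Mice could not be paired by number, because the mouse numbers in the labels are not shared between groups. Slide as a block was among the alternatives. At the spread of Bpifa1 and Reg3g, changes of several fold were not detectable with 4 or 5 mice a group.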
